A study of Caenorhabditis elegans with 2 samples.

Results

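The strong peaks that RNA polymerase II showed in 1 of 2 replicates, the second, numbered 1089 of the 1861 strongest peaks of that replicate. They were chosen by the deposited signal of each peak: the 1861 peaks of highest signal were taken in each replicate, and the members are the replicate 2 peaks whose interval overlapped none of those taken in replicate 1. The other 772 strong replicate 2 peaks overlapped a strong replicate 1 peak and are called shared, and 1085 strong replicate 1 peaks overlapped none of replicate 2. Both lists together hold 60000 peaks, 30000 each. Each member was placed by its summit on the ce11 build against the protein-coding genes of WBcel235, the same assembly.

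Both libraries come from chromatin immunoprecipitation and sequencing (ChIP-seq) with an antibody against AMA-1, which is the largest subunit of RNA polymerase II. They hold L2 larvae of the wild-type strain N2, and each is a biological replicate of whole animals, both sexes pooled, with all tissues together and an age the labels give as unknown. There is 1 group, with no other stage, genotype or treatment, and the control library was not analysed here. In such a bulk sample, fewer cells of a type that use a gene and less polymerase per cell cannot be told apart.

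RNA polymerase II transcribes the protein-coding genes and most microRNA genes, and in ChIP-seq its signal can lie at the start of a gene, along the transcribed body and past the 3′ end, where transcription ends. In C. elegans larvae the epidermis makes a collagen cuticle that is rebuilt at each molt, and many cuticle collagen genes are transcribed in pulses once per larval stage. The heterochronic genes, among them lin-14, lin-42 and the microRNAs lin-4 and let-7, set the order of these stages.

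The sequences under the strongest members show the 3 settings in which members were found. Each window holds 40 bases to either side of the summit, from the RefSeq genome sequence of WBcel235 (ce11), written 5′ to 3′ in the direction of the gene. Capitals mark bases in a coding exon of the assigned gene. The first set lies wholly in coding exons, of the cuticle collagen genes dpy-13 (chrIV:4235793-4235873, plus strand), sqt-1 (chrII:11337644-11337724, minus strand) and sqt-2 (chrII:23789-23869, plus strand), and of F41F3.3 (chrV:4648006-4648086, minus strand).
dpy-13: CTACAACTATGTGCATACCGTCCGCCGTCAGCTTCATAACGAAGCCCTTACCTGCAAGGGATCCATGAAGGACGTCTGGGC
sqt-1: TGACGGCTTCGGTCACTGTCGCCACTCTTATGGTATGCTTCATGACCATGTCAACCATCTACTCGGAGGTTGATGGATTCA
sqt-2: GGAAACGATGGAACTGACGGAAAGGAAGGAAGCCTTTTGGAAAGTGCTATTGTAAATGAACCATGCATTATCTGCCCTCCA
F41F3.3: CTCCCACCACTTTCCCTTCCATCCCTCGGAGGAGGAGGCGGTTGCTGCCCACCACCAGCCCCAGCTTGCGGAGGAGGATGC

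The second set crosses from an intron into a coding exon, in tatn-1 (chrX:14792429-14792509, plus strand) and let-754 (chrIII:7950618-7950698, minus strand).
tatn-1: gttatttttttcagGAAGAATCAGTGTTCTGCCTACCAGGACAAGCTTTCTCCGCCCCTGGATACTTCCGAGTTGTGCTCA
let-754: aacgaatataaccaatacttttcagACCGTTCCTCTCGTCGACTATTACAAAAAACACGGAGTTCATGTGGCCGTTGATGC

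The third set has no coding base. The lit-1 window (chrIII:13720413-13720493, plus strand) and the atln-2 window (chrIV:14985205-14985285, plus strand) lie in introns. The sqt-3 window (chrV:12354618-12354698, plus strand) and the col-17 window (chrII:4866240-4866320, minus strand) lie past the annotated 3′ ends of these 2 collagen genes.
lit-1: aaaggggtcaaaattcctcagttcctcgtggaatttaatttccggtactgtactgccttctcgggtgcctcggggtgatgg
atln-2: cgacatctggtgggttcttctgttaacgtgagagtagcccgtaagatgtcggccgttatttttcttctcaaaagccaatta
sqt-3: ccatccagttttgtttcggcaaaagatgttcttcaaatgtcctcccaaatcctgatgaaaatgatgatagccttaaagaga
col-17: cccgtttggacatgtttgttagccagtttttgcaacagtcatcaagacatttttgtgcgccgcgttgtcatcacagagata

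The signal is the authors' value for each peak, on a scale that no label or file header states. It orders peaks within a list. The scales of the replicates need not be the same: the whole lists have medians of 9.99 in replicate 1 and 6.72 in replicate 2. Where the text gives both values for a peak they stand side by side, and no difference in size between replicates is read from them. Member signals ran from 19.8 to 94.7 with a median of 24.6, against 19.8 to 476.4 and a median of 29.3 for the shared peaks. Few of the very strongest replicate 2 peaks were members: 3 of the first 50 ranks (6.0%), 124 of ranks 251 to 500 (49.6%) and 595 of ranks 1001 to 1861 (69.1%). At the limit, the last members were rbm-34 (19.786), T28B11.1 (19.785) and R31.2 (19.783), and the next replicate 2 peaks were at nhr-274 (19.777), copa-1 (19.773) and asns-2 (19.769). In replicate 1 the last peak taken had 35.89 and the next 35.88.

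Most members had a peak in replicate 1 below the limit, where the choice of members places it. In the whole replicate 1 list, 827 members (75.9%, Wilson 95% interval 73.3 to 78.4) overlapped a peak, with a replicate 1 signal of 4.86 to 35.9 and a median rank of 6008. Of these, 164 lay between the limit and replicate 1 rank 3000, 177 from there to rank 5000, 232 to rank 10000, 170 to rank 20000 and 84 beyond. The other 262 members (24.1%, 21.6 to 26.7) overlapped no replicate 1 peak. The authors' optimal list, made from both replicates and their pool, overlapped 301 members (27.6%), 752 shared peaks (97.4%) and 749 replicate 1 only peaks (69.0%). All intervals here cover counting error over summits only, neighbouring summits are not independent, and with 1 library on each side no test was made.

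**Figure D1:**
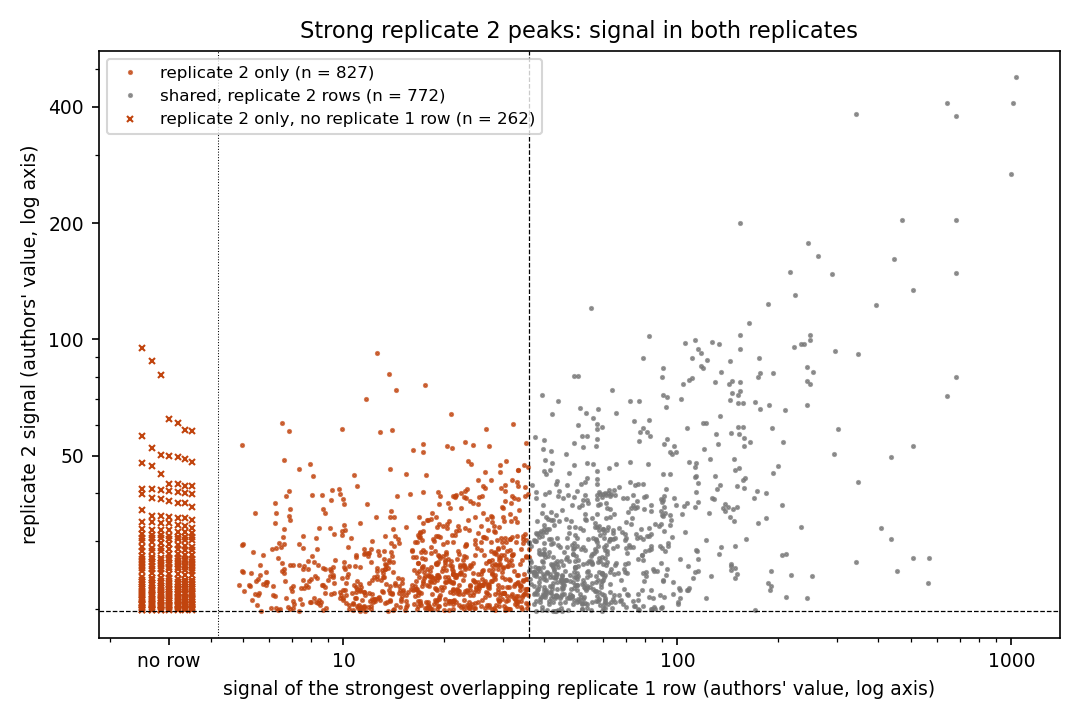
Signal of each strong replicate 2 peak (vertical, log axis) against the signal of the strongest overlapping replicate 1 peak (horizontal, log axis), in the authors' units; dashed lines mark the limits of the strong peaks, and crosses left of the dotted line are the 262 members with no replicate 1 peak, spread sideways so that they can be seen. The 827 members with a replicate 1 peak fill the area left of the vertical limit by construction, and members above a signal of 50 occur both there and among the crosses.

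More members lay along gene bodies than at gene starts, but gene bodies also hold more of the genome. Of the 1089 summits, 258 (23.7%, 21.3 to 26.3) were within 500 bp of a 5′ end, 598 (54.9%, 51.9 to 57.8) in a gene body beyond that window, 93 (8.54%, 7.02 to 10.3) within 500 bp past a 3′ end and 140 (12.9%, 11 to 15) elsewhere. The genome itself has 51.4% of its bases in gene bodies so defined and 18.8% in 5′ windows. The members' body share was thus near its share of bases, with an interval just above it, and the 5′ share was further above. Shared peaks had 39.1% at 5′ ends and 33% in bodies, and replicate 1 only peaks had 54.8% and 22.8%. The members' interval overlapped neither of these for either place. The 3′ count leaves out summits already placed at a 5′ end or in a body. Counted for any gene, 285 members (26.2%, 23.6 to 28.9) lay within 500 bp past a 3′ end. So did 29.7% of shared and 22.9% of replicate 1 only summits.

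Within the body, coding exons held a larger share of members than of bases. Coding exons beyond the 5′ window held 266 members (24.4%, 22.0 to 27.1) and 19.3% of genome bases, whereas introns held 255 (23.4%, 21 to 26) and 28.9% of bases. With the 5′ windows added, 357 member summits (32.8%) were in a coding exon, against 20.9% of shared and 12.7% of replicate 1 only summits. The median GC content of the 201 bp around a member summit was 40.3%, and 42.8% for summits in coding exons, where all coding bases of the genome have 42.9%. Windows of shared peaks had the same medians, 40.3% and 42.8%. The window was unique for 1064 members (97.7%), meaning that over 90% of its 36-base words occur once in the genome. Among the genes described here, the windows at tpi-1, ida-1 and rpl-7A and the weakest member window of both sqt-3 and col-17 were not unique, and their reads cannot be told apart from those of similar sequences.

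**Figure D2:**
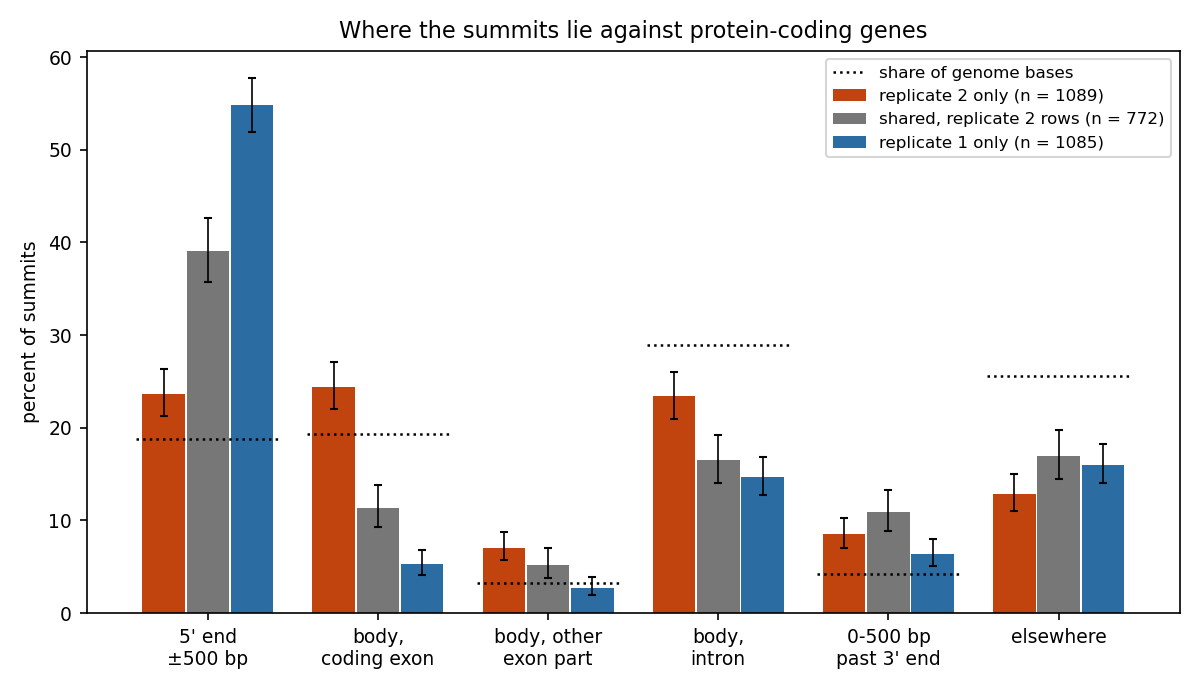
Percent of summits at each place relative to protein-coding genes for members (n = 1089), shared peaks (n = 772) and replicate 1 only peaks (n = 1085); bars are Wilson 95% intervals and dotted lines the share of genome bases. Members are lowest of the 3 classes at 5′ ends (23.7%) and highest in coding exons of the body (24.4%).

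Even members near a 5′ end tended to lie inside the gene. Of the 258 in that window, 159 (61.6%, 55.6 to 67.3) were downstream of the annotated 5′ end, with a median position 63 bp inside it. Among shared peaks 37.7% and among replicate 1 only peaks 36.6% of such summits were inside, with medians 71 and 78 bp upstream. Annotated 5′ ends of trans-spliced worm genes can differ from the start of transcription, which touches all 3 classes. In gene bodies, members tended to lie late. Beyond 75% of the gene's length lay 255 of 598 body summits (42.6%, 38.7 to 46.6), and the median member sat at 68.6% of the gene's length. Of the shared body summits 34.5% (28.9 to 40.5) lay there, an interval that overlaps that of the members. Of the replicate 1 only body summits 28.3% (23.1 to 34.3) did. Within 500 bp before the 3′ end lay 22.7% of the members' body summits, 22.0% of the shared and 23.1% of the replicate 1 only body summits. The stretch from 400 to 300 bp before the 3′ end was chosen because the member curve peaks there, a choice that favours members. As a share of all summits it held 51 members (4.68%, 3.58 to 6.11), 2.33% of shared (1.48 to 3.66) and 1.01% of replicate 1 only summits. The shared interval overlaps that of the members, and shares of all summits also carry the members' larger body share. Genes under body members were long, with a median of 4618 bp over 400 genes against 2027 bp over all protein-coding genes, but so were those of the shared (4890 bp) and replicate 1 only (4941 bp) body summits.

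**Figure D3:**
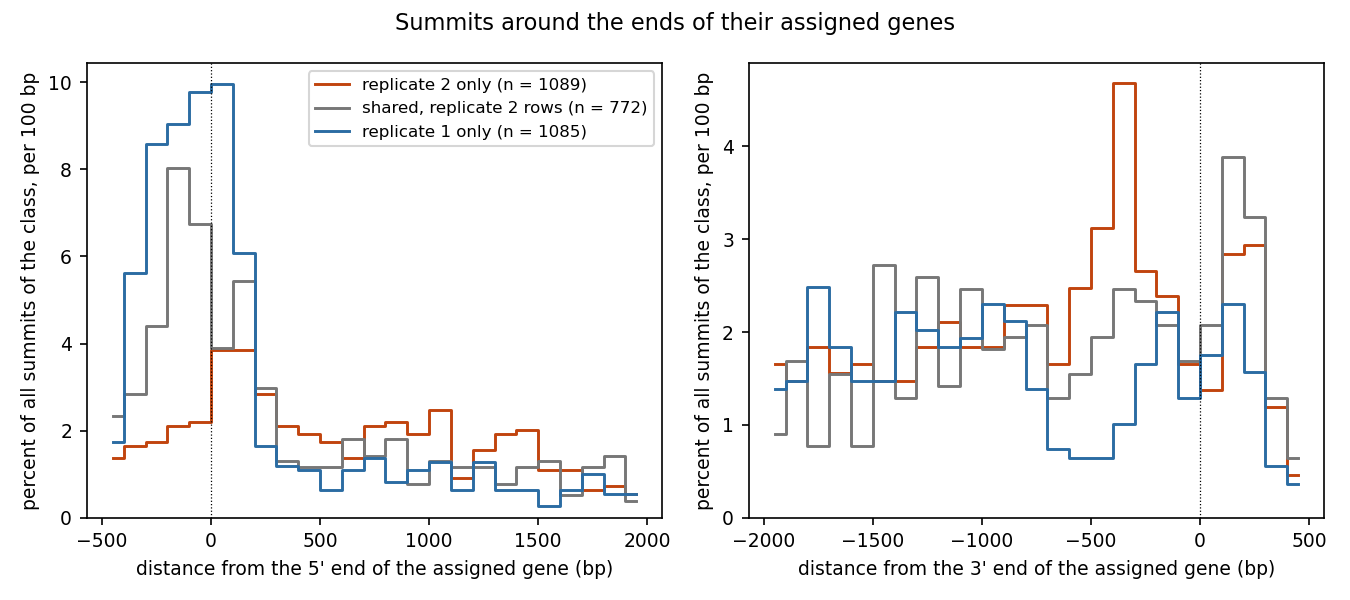
Percent of all summits of a class per 100 bp around the 5′ end (left) and the 3′ end (right) of the assigned gene, in bp along the direction of transcription. The member line stays low upstream of the 5′ end, where 9.27% of members lie from -500 to 0 bp against 34.8% of replicate 1 only summits, and is highest between 400 and 300 bp before the 3′ end.

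Members came in runs along the same genes. Another member summit lay within 2 kb (2000 bp) of 555 members (51.0%), and the nearest strong replicate 1 summit was at a median distance of 4750 bp. No such spacing is given for the other classes, so runs are not shown to be particular to members. At mnk-1, for example, 9 shared summits stood beside 5 members. Some neighbouring members overlapped the same replicate 1 peak, such as those 6446 and 6702 bp from the 5′ end of egl-9. The members fell on 648 protein-coding genes, 3.24% of 19973, where shared peaks fell on 477 (2.39%) and replicate 1 only peaks on 804 (4.03%). Of the 648 genes, 172 held 2 or more members and 59 held 3 or more, and 81 held members in more than 1 of the 3 places (start, body, past the end). A replicate 1 only peak was also on 117, which is 18.1% of the member genes and 14.6% of the replicate 1 only genes. A shared peak was also on 109, which is 16.8% of the member genes and 22.9% of the shared genes. Over all protein-coding genes these peaks fell on 4.03% and 2.39%, so member genes held the other classes more often than genes at large. The remaining 465 member genes (71.8%) held neither.

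The gene with the most members was fasn-1 (chrI:8975366-8986540), the fatty acid synthase, with 12 summits from 33 to 11295 bp from its 5′ end. Their replicate 2 signals ran from 20.3 to 41.6, 4 had no replicate 1 peak, and the other 8 had replicate 1 signals of 6.41 to 23.0. Coding exons held 10 of them, and 2 shared summits of 26 and 47.9 lay in an intron near the start. The kinase gene lit-1, which acts in Wnt signalling, had 9 members of 20.5 to 58.3, from 14306 bp on in its 22414 bp length or just past its end. Its single replicate 1 only summit lay nearer the start. The translational repressor gene ncl-1 had 8 members of 20.2 to 39.2, each with a replicate 1 signal of 9.88 to 24.4.

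Enzymes of metabolism and of oxygen sensing were also among the genes with the most members. The gluconeogenic gene pck-1, for phosphoenolpyruvate carboxykinase, had 7 of 25.8 to 41.3 with replicate 1 signals of 17.2 to 34.4. The HIF prolyl hydroxylase gene egl-9 had 7 of 20.4 to 34.7, the MAP kinase phosphatase gene vhp-1 had 7 of 20.3 to 33.9, and none of these 14 lacked a replicate 1 peak. W06H8.6 had 7 of 21.7 to 49.5 and gei-4 had 5 of 26.5 to 47.6, beside shared peaks at both. A contrast, chosen after its values were seen, was gpdh-1, a glycerol-3-phosphate dehydrogenase gene: its 5 members of 25.1 to 40.2 all lay in coding exons, and the whole replicate 1 list had no peak from 500 bp before the gene to 500 bp past it.

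Cuticle collagens stood at the top of the list. Of the 25 strongest members, 9 were assigned to collagen genes, as were 32 of all 1089 members. Coding exons held 12 of the 25, and 32.8% of all members. The strongest was at dpy-13, 219 bp inside the gene, with a replicate 2 signal of 94.7 and no overlapping replicate 1 peak. Further members of dpy-13 had 29.3 at 934 bp and 53.1 past its 3′ end, and both overlapped 1 replicate 1 peak of 4.97, at rank 29320. At sqt-3 the replicate 2 signals were 58.5, 31.9 and 23.2 inside the gene and 92.3 at 338 bp past its 3′ end. The replicate 1 signal at sqt-3 was 9.94 under the first and the second, absent under the third and 12.6 past the end. At sqt-1 they were 70.0, 42.2 and 57.6 with replicate 1 signals of 11.7, none and 12.9.

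The same placement, inside the gene and past its end, recurred at other collagen genes. Members at col-17 included 80.7 at 156 bp past the 3′ end, and sqt-2 had 60.9 in a coding exon, both without a replicate 1 peak. At rol-8 the member 193 bp past the 3′ end had 63.9, and 21 in replicate 1, and col-90 had 56.3 without one. The atln-2 intron peak, 81.2 in replicate 2 and 13.7 in replicate 1, was 298 bp downstream of the collagen gene dpy-4, which lies within the span of atln-2, an atlastin gene. The let-754 exon peak, 58.6 in replicate 2 and 26.6 in replicate 1, lay 590 bp past the 3′ end of col-90. let-754 encodes an adenylate kinase. Summits assigned to collagen genes also lay past other genes: the col-17 summit of 80.7 was 480 bp past the 3′ end of F11G11.14. The sqt-1 summit of 70.0 was 767 bp past that of rmd-3, and the col-90 summit of 56.3 was 931 bp past that of let-754. Which gene the polymerase under such a summit was transcribing cannot be told apart from these peaks.

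In all, 16 of 176 cuticle collagen genes (9.09%, 5.67 to 14.3) held 32 members with a median signal of 41.9, against 24.6 over all members. Shared peaks fell on 5 of these genes (2.84%) and replicate 1 only peaks on 6 (3.41%). None of these was among the 16, but with shares this low over the list few would be. Over all protein-coding genes the shares were 3.24% for members, 2.39% for shared and 4.03% for replicate 1 only peaks. Of the 32 summits, 18 (56.2%) had no replicate 1 peak, against 24.1% over all members. The choice of members rests on replicate 1 signal too, and the 32 summits come from 16 genes, so no weight is put on this. A coding exon held 20 of the 32, against 32.8% of all members. The median gene of the list is 1220 bp long, so the 5′ window takes in a large part of it. Within 500 bp of the 5′ end lay 15, in the body 10 and past the 3′ end 7, against 23.7%, 54.9% and 8.54% of all members. Members lay in more than 1 of these places at 11 of the 16 genes. The 8 collagen genes not yet named had their highest member at 20.7 to 48.9. In the whole replicate 1 list, 5 of the 16 genes had no peak from 500 bp before to 500 bp past the gene, and the best of the other 11 ranged from 4.97 to 50.4 with a median of 12.6, the 50.4 lying beside sqt-2.

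**Figure D4:**
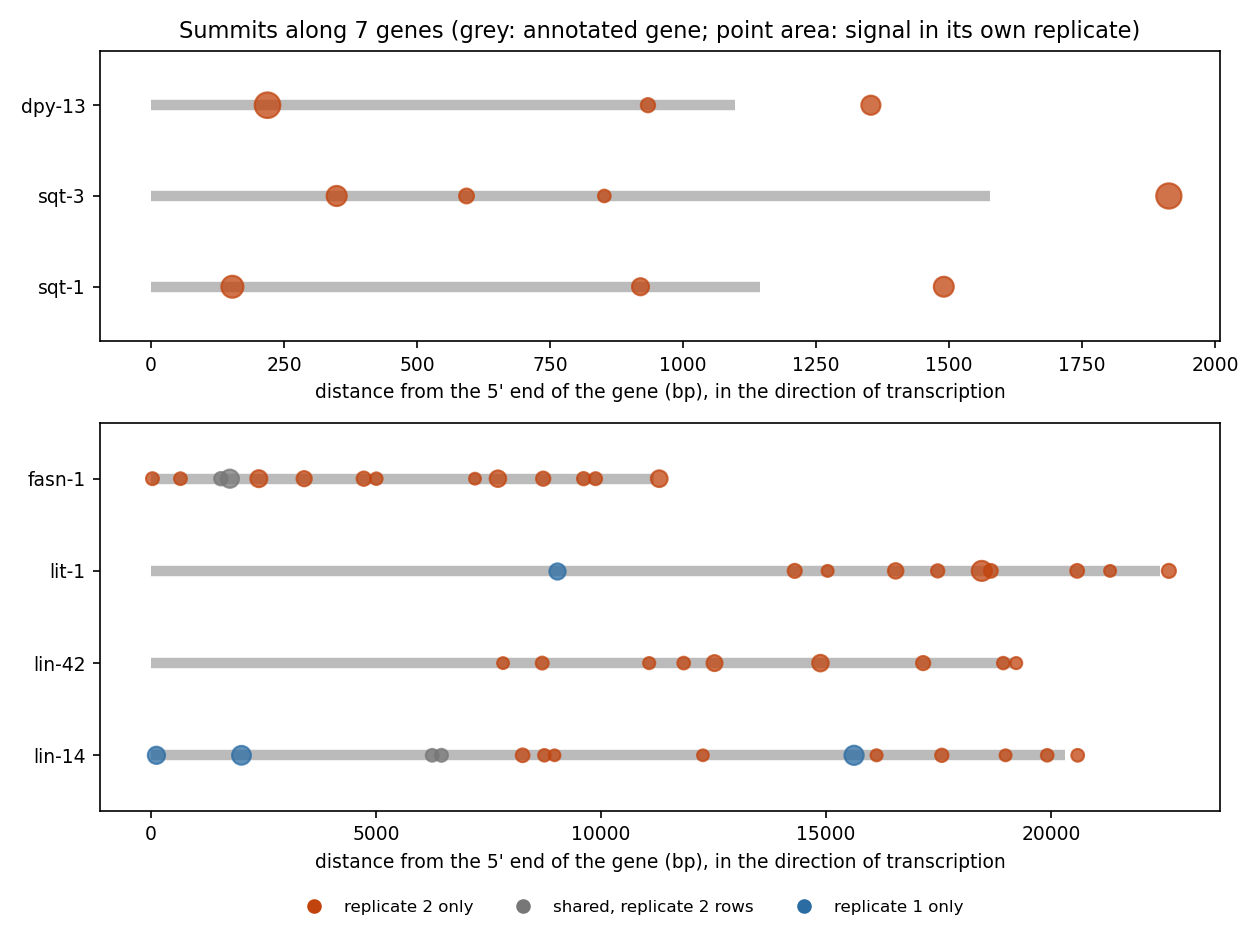
Summits along 7 genes by distance from the 5′ end (bp, in the direction of transcription); grey bars are the annotated genes, colours the 3 classes, and the area of a point is proportional to its signal in its own list. At dpy-13, sqt-3 and sqt-1 all summits are members and 1 of each gene's lies past the 3′ end; the first member lies 14306 bp from the 5′ end at lit-1, 7824 bp at lin-42 and 8259 bp at lin-14.

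Genes of the epidermis and of molting, which secrete and remodel that cuticle, held members at 11 of 48 (22.9%, 13.3 to 36.5). Over all protein-coding genes the share with a member was 3.24%. A shared peak fell on 1 of the 48 and a replicate 1 only peak on 0. The 11 genes with members had neither, which says little with counts this low over the list. The 18 summits of the 11 genes had signals of 20.3 to 30.7 with a median of 22.8. Of these, 12 (66.7%) had no replicate 1 peak, against 24.1% over all members. Here too the choice of members rests on replicate 1 signal, so no weight is put on this. In 15 of the 18 the summit was in the gene body, as in 54.9% of all members, and the genes of this list are long. The highest were at noah-2, for a matrix protein of the cuticle (30.7), phy-2, a prolyl 4-hydroxylase subunit that modifies collagens (30.3), mlt-11, for a protease inhibitor needed in molting (29.6, with 4 members), and dpy-18, the partner subunit of phy-2 (26.1), none with a replicate 1 peak under it. In the whole lists, 8 of the 11 genes had a replicate 1 peak from 500 bp before to 500 bp past the gene, with 59 peaks in all in replicate 1 and 150 in replicate 2, and the best replicate 1 signal per gene ran from 5.06 to 31.9. The other 3 were mlt-11, noah-2 and qua-1, with 19, 8 and 7 replicate 2 peaks. At lrp-1 the counts were 26 in replicate 1 and 37 in replicate 2, and at wrt-1 they were 4 and 5. The median gene of this list is 5307 bp long, against 2027 bp over all protein-coding genes.

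Heterochronic genes held members at 4 of 11 (36.4%, 15.2 to 64.6), with 21 summits, where 3.24% of all genes held one. Shared and replicate 1 only peaks each fell on 2 of the 11 (18.2%, 5.14 to 47.7), an interval that overlaps that of the members, and the median gene of the list is long, at 7697 bp. At lin-42 (chrII:1233236-1252359), the Period homologue of the worm, 9 members of 20.4 to 39.8 ran from 7824 to 19227 bp from the 5′ end, and none had a replicate 1 peak. The whole replicate 1 list held 0 peaks over the gene, where the replicate 2 list held 24. lin-14 (chrX:11465560-11485871), a transcription factor gene repressed by the microRNA lin-4, differed: its 9 members of 20.0 to 27.2 lay from 8259 bp on, 2 lacked a replicate 1 peak, and the gene also carried 2 shared and 3 replicate 1 only summits. The nuclear hormone receptor gene nhr-85 had 2 members, the highest 39.4 in replicate 2 and 19.5 in replicate 1, and kin-20, a casein kinase gene, had 1 of 21.1, and 8.47 in replicate 1. The 7 others had no member. In the whole lists daf-12 had 33 peaks in replicate 2 and 8 in replicate 1, lin-29 had 12 and 0, lin-41 had 8 and 4, lin-66 had 9 and 9, lin-28 had 5 and 7, hbl-1 had 2 and 1, and lin-46 had 1 and 2.

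The microRNA genes of that pathway, looked up after these values were seen, carried members too. Members within 500 bp were found at 4 of 5, with gene positions from RefSeq. At lin-4 a member of 33.7 lay 19 bp from the hairpin and others of 22.9 and 26.1 within 1 kb, none with a replicate 1 peak. At mir-48 a member of 30.5 had its summit in the gene, and at its neighbour mir-241 one of 38.2 lay 296 bp away, again with none in replicate 1. At let-7 members of 37.8 and 33.4 shared 1 replicate 1 peak of 6.26, at rank 24170. No member lay within 2 kb (2000 bp) of mir-84, and no strong peak of either other class lay that near any of the 5. Over all 260 microRNA genes, members were within 500 bp of 12 (4.62%), as were replicate 1 only peaks (4.62%), and shared peaks of 20 (7.69%).

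Metabolic genes were also among the strongest members. Both tatn-1, for tyrosine aminotransferase, with 60.5 and 53.5 in replicate 2 (32.1 and 17.3 in replicate 1), and hpd-1, for 4-hydroxyphenylpyruvate dioxygenase, with 54.3 (23.1 in replicate 1), act in tyrosine breakdown. The S-adenosylhomocysteine hydrolase gene ahcy-1 had 53.3 (24.4 in replicate 1), and lsm-6, for an RNA-binding protein of splicing, had 53.8 (35.2 in replicate 1), just under the limit. The lsm-6 summit also lay 90 bp past the 3′ end of ubc-3. Glycolysis genes held members at 6 of 19 (31.6%), the same count as for replicate 1 only peaks. The highest were the hexokinase gene hxk-1 (39.7, no replicate 1 peak), the enolase gene enol-1 (34.7, and 18.9 in replicate 1), the aldolase gene aldo-2 (29.5, and 23.2) and the triose phosphate isomerase gene tpi-1 (25.6, and 23.8). Intestine genes held members at 4 of 42 (9.52%), an interval of 3.77 to 22.1 that starts just above the 3.24% of all genes. These were acdh-1 (40.7), fat-6 (31.8), asp-1 (22.6) and cpr-6 (20.0), and 5 of their 7 summits had no replicate 1 peak. Shared peaks fell on 0 of the 42 and replicate 1 only peaks on 1.

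Other strong members lay at F41F3.3, with 87.6 in a coding exon and no replicate 1 peak and 76.2 past its 3′ end (17.6 in replicate 1), F53F1.4 (73.7, and 14.3 in replicate 1) and R02E4.3 (60.7, and 6.54), both past the 3′ end. The member in the last part of Y43F8B.3 had 58.0 with no replicate 1 peak, and it is the 1 of the 25 strongest that the authors' optimal list does not overlap. Its summit also lay 258 bp past the 3′ end of Y43F8B.2, and the F41F3.3 summit of 76.2 lay 528 bp past that of soc-1. Among the strongest without a replicate 1 peak were also an intron of the chemoreceptor gene srh-2 (52.2) and the region past the antimicrobial peptide gene nlp-33 (50.2). Of the 25, 3 were outside all protein-coding genes and their 500 bp windows, with summits at 2329113 on chromosome X (62.2), 8864863 on chromosome III (58.3) and 10926027 on chromosome II (57.9, and 6.85 in replicate 1). The summit on X lay in the annotated microRNA gene mir-8196a. Over all members, 47 summits lay in an annotated noncoding gene other than a piRNA, 27 of them of the class ncRNA.

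Several lists of housekeeping genes held more genes with a replicate 1 only peak than with a member, where over all genes the shares were 4.03% and 3.24%. Ribosomal protein genes held members at 2 of 81 (2.47%), rpl-3 (22.0, and 30.3 in replicate 1) and rpl-7A (20.8, and 24.7), against 25 with a replicate 1 only peak (30.9%, 21.9 to 41.6). V-ATPase genes had 1 of 21, vha-20 (28.7, and 35.9), against 8, and proteasome genes 0 of 33 against 6. Chaperone genes had 3 of 38 (7.89%), hsp-3 (31.4), enpl-1 (24.4) and hsp-60 (20.7), against 14 (36.8%). Oxidative phosphorylation genes had 4 of 45 (8.89%), ucr-2.3 (29.9), atp-2 (29.9), cox-5B (28.1) and mev-1 (21.7), against 13 (28.9%). Translation factor genes had 1 of 31, eef-2 (21.2), and RNA polymerase II and Mediator genes 4 of 58 (6.90%), mdt-4 (34.6), rpb-11 (34.4), mdt-26 (30.1) and mdt-15 (23.6), against 9.

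The remaining lists hold markers of other cell types and large gene families, to be read beside the 3.24% of all genes with a member. Neuronal genes had 7 of 58 (12.1%, 5.97 to 22.9), led by unc-31 (30.3), mec-4 (25), mec-17 (24.9) and ida-1 (23.5), beside 6 with a replicate 1 only peak. Muscle genes had 3 of 47 (6.38%), sca-1 (29.5), pat-4 (27.3) and unc-54 (26.5), and germline genes 1 of 44, syp-4 (23.0). Nuclear hormone receptor genes had 14 of 269 (5.20%, 3.13 to 8.55), as many as had replicate 1 only peaks, led by nhr-85 (39.4), nhr-57 (37.7), nhr-114 (33.7) and nhr-40 (33.3). Histone genes had 2 of 60, his-68 (29) and his-9 (28.8), and antimicrobial genes 4 of 111 (3.60%), nlp-33 (50.2), cnc-3 (41.8), nlp-31 (40.2) and nlp-34 (24.1). Chemoreceptor genes had 6 of 1299 (0.462%), the highest after srh-2 being srx-88 (37.6), str-83 (35.5) and sre-45 (31.8), and C-type lectin genes 1 of 237, clec-178 (21.3).

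**Figure D5:**
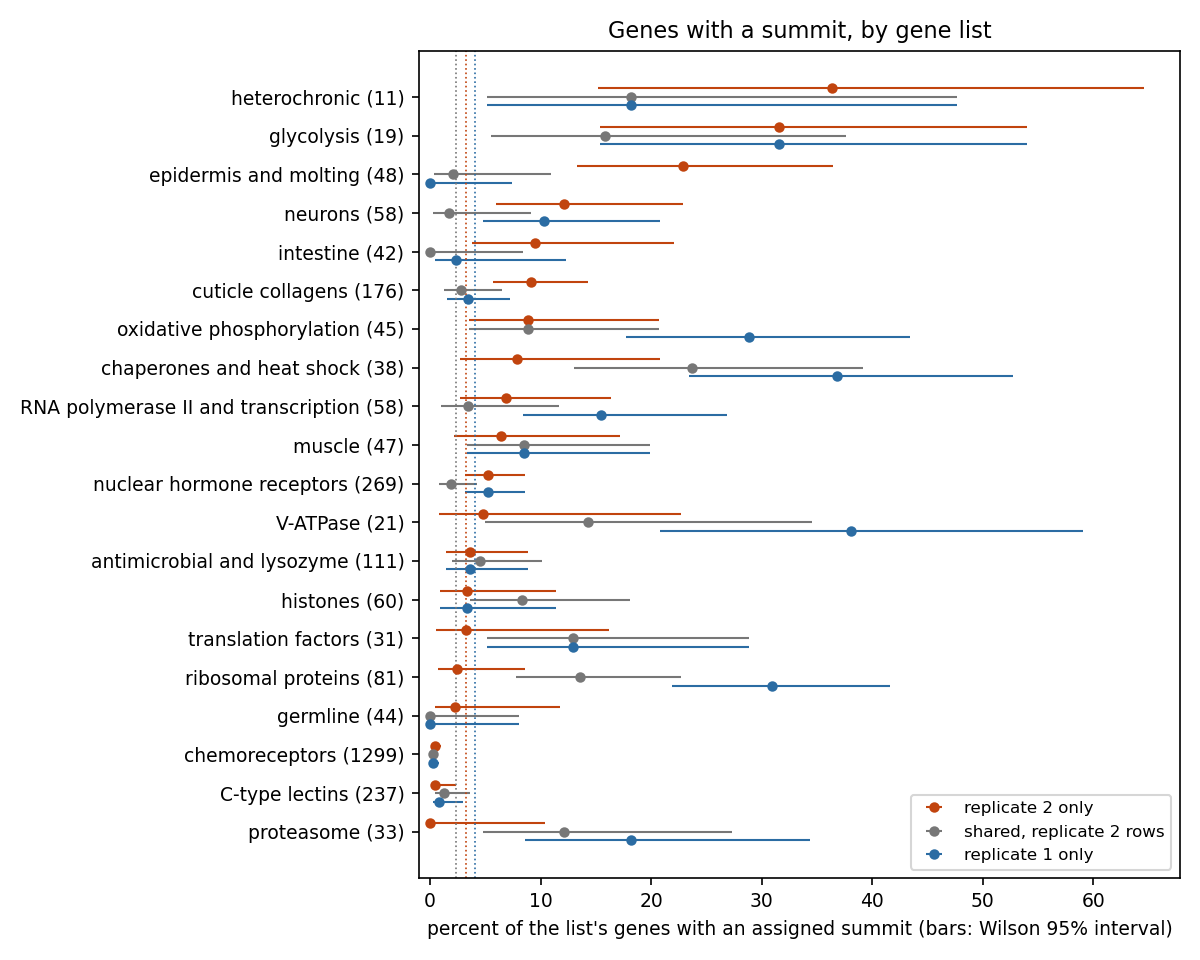
Percent of the genes of each list with an assigned summit of each class (points) with Wilson 95% intervals (bars); the number of genes is in parentheses and dotted lines mark the 3.24%, 2.39% and 4.03% of all protein-coding genes. Members are the highest of the 3 classes in several lists, among them the epidermis and molting list (22.9%) and the cuticle collagens (9.09%), and replicate 1 only peaks lead in ribosomal proteins (30.9%) and V-ATPase (38.1%).

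The members were spread unevenly over the chromosomes. Chromosome II held 229 (21%, 18.7 to 23.5) with 15.2% of the bases and chromosome III 205 (18.8%, 16.6 to 21.3) with 13.7%, whereas X held 145 (13.3%, 11.4 to 15.5) with 17.7%. Shared and replicate 1 only peaks had 16.7% and 17.2% on II, 17.2% and 19.0% on III, and 12% and 12.9% on X. The high share on III and the low share on X were thus not particular to members. On II both other classes were also above their share of bases. The members' interval there lay above both shares but overlapped their intervals (14.2 to 19.5 and 15.1 to 19.6). On the autosomes 64.7% of members (61.6 to 67.7) were in the central 50% of the chromosome. For shared and replicate 1 only peaks these shares were 68.9% and 67.3%.

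Short motifs were counted on both strands in the 201 bp around each summit. GAGAGA was in 18.1% of member windows (15.9 to 20.5), in 26.6% of both shared and replicate 1 only windows, in 9.99% of all windows of that length in the genome and in 14% of windows centred on annotated 5′ ends. GGACC, the letters of a glycine codon followed by the start of a proline codon, was in 11.9% of member windows (10.1 to 14), 7.38% of shared, 7.65% of replicate 1 only and 9.41% of genome windows, and in 16% of member windows centred in a coding exon. The usual polyadenylation signal, AATAAA, was in 27.4% of member and 38.2% of genome windows, with 32.4% of shared and 36.1% of replicate 1 only windows. The TATA box letters TATAAA were in 14.8% of member and 21.2% of genome windows. Shared windows had TATAAA in 15% and replicate 1 only windows in 18.1%, so its low share was not particular to members. The genome has 35.4% GC, against a median of 40.3% in member windows. Whether this difference accounts for the low shares of letters made only of A and T was not tested. The letters that end many worm introns, TTTCAG, seen in both windows above that enter an exon, were in 30.9% of member and 35.8% of genome windows. Shared windows had them in 28.6% and replicate 1 only windows in 29.2%. A motif of GATA factors, TGATAA, was in 15.1% of member and 17.9% of genome windows, with 16.1% of shared and 18.0% of replicate 1 only windows. A core of heat shock elements, TTCNNGAA, was in 13.6% of member and 13.9% of genome windows, with 11.8% and 12.8% in those classes. The polyadenylation, TATA and GATA letters share runs and can overlap one another. These matches are letters only and say nothing about a bound factor.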

How the data were processed

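The deposited files are peak lists of 2 replicates, their pool and an optimal list, on ce10 and ce11. The authors gave each peak a signal (column 7) and a summit offset (column 10, another unit), per the deposited file layout. The peak caller, its version, the aligner, thresholds and the signal's scale were not given in the sources used here. Read depth is unknown. The number of peaks taken per replicate (1861) is the length of the ce11 optimal list, and an overlap was 1 bp or more. A summit counted as 5′ if 500 bp or less from a 5′ end, otherwise as body, otherwise as 3′ up to 500 bp downstream of a gene, otherwise as elsewhere, and was assigned to 1 of 19973 protein-coding genes (Ensembl release 115). Shares have Wilson 95% intervals, and no test was made because each side is 1 library. Symbols in 20 gene lists were matched exactly (338 of 349 given as symbols). The members and lists were chosen with earlier results of these data known. Genes were named by rule: the 25 strongest members, the 10 genes with the most members, up to 4 genes of highest signal per list, the 3 peaks on either side of the limit and the 10 strongest members without a replicate 1 peak. Counting was done in Python 3.11.15 with numpy 2.4.6, pandas 2.3.3 and scipy 1.17.1, and the overlap and placement steps were tested on simulated data. Other overlaps, list lengths, windows and gene sets were tried.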

Additional observations from a re-analysis of the deposited data

How the results depend on the processing

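Of the values recomputed under other settings, 44 were counted as close to those reported and 37 as moved. The close ones include all those for unique windows only and for the ce10 lists (1146 members). They also include the member counts of 1312 at 50% overlap and 1330 for summits within 100 bp, against 1089. Shares in exons below are for body exons of either kind, coding or not, which held 31.5% of members in the main setting. With an overlap of 50% of both intervals required, the body share was 51.8%, the share with a replicate 1 peak 80.0% and the share in the optimal list 38.7%. With summits within 100 bp counted as shared, the 5′ share was 26.7%, body 50.9%, replicate 1 80.3% and optimal 39.4%. With any peak of the whole replicate 1 list counted as shared, 262 members and 187 genes remained, with 20.6% at 5′ ends, 59.9% in bodies, 37.4% in exons, 9.16% in the optimal list and, by construction, 0.0% in replicate 1. With 930 peaks taken there were 554 members (26.7% 5′, 48.0% body, 11.2% 3′, 79.8% in replicate 1, 55.6% optimal). With 3722 taken there were 2182 (20.3% 5′, 60.4% body, 69.3% in replicate 1, 6.46% optimal). A window of 250 bp gave 14.5% at 5′ ends, 61.1% in bodies, 6.43% past 3′ ends, 18.0% elsewhere and 35.4% in exons. One of 1000 bp gave 39.5%, 44.0% in bodies, 8.54% elsewhere and 24.6% in exons. With all annotated genes the shares were 33.7% at 5′ ends, 50.4% in bodies and 8.54% elsewhere. The cause of these moves was not tested where the setting does not fix it.

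Cuticle collagen genes with a member numbered 13 when any replicate 1 peak was counted as shared, epidermis and molting genes 7 and heterochronic genes 2, and 20 of the counts over all lists moved by over 1.5 times. No paired analysis was possible because there is 1 group and no test. Leaving out a replicate was not run, since the definition of the members needs both. Unknown depth, an unstated signal scale and 1 library on each side limit all comparisons: a peak missing from a list of 30000 may still be enriched there.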
